A study of Rattus norvegicus with 12 samples.

Results

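The 10 genes described here belong to the oxidative stress response and were read across anterior pituitary glands of 4 congenic rat lines. They are *Nfe2l2*, *Keap1*, *Nqo1*, *Gclc*, *Gclm*, *Txnrd1*, *Srxn1*, *Gsr*, *Slc7a11* and *Gstp1*, and every probe set to which the platform annotation gives exactly 1 of these symbols was taken. This rule found 15 of the 31099 probe sets on the array, and all 10 genes were represented, 4 of them by more than 1 probe set. Of the 15 probe sets, 13 from 9 genes passed the filter on dim signals. The only probe set of *Slc7a11* and 1 of the 3 probe sets of *Srxn1* did not.

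The arrays came from male rats of the lines Ept9, Ept1, Ept2 and Ept6, with 3 arrays for each line and 12 in all. The lines share an ACI background into which alleles of the COP strain were bred at 1 locus, on chromosome 10 in Ept9, chromosome 6 in Ept1 and chromosome 3 in both Ept2 and Ept6. All animals received the synthetic estrogen diethylstilbestrol (DES) as an implant of 5 mg at 9 weeks of age, were given the DNA label BrdU at 50 mg/kg, and were killed 4 h after that injection, at 21 weeks of age and after 12 weeks of DES. No array of the ACI strain and none of an untreated gland was analysed here, and the reference for a line was therefore the mean over the remaining 3 lines, so that a large difference in 1 line shifts the values of the rest. The labels conflict on whether the 3 arrays of a line are 3 independent animals, so p-values may measure spread that is in part technical.

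*Nfe2l2* encodes NRF2, a transcription factor that binds antioxidant response elements together with a small MAF protein. KEAP1 holds NRF2 in the cytoplasm and delivers it for degradation, and electrophiles or oxidants acting on KEAP1 let NRF2 accumulate. Its best known target genes make glutathione, recycle thioredoxin and glutathione, and conjugate or reduce reactive compounds.

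Promoter windows are shown for the 3 target genes among the 10 in which the core letters of an antioxidant response element, TGACNNNGC on either strand, were found before the start of the gene. The windows are RefSeq sequence of the rat assembly GRCr8, 250 bases before to 50 bases after the start, not sequence of these lines, and capitals mark the matching letters. *Gstp1* (chr1:210769656-210769955, minus strand) has the match 61 bases before its start, *Gclm* (chr2:213031885-213032184, plus strand) has it 172 bases before on the other strand, and *Txnrd1* (chr7:22755855-22756154, minus strand) has it 78 bases before on the other strand.
Gstp1: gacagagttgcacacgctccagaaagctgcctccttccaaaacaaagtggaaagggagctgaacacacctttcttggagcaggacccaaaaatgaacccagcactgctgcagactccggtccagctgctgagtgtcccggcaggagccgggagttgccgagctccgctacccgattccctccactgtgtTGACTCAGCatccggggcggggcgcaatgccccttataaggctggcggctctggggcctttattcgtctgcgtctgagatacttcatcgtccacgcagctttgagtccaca
Gclm: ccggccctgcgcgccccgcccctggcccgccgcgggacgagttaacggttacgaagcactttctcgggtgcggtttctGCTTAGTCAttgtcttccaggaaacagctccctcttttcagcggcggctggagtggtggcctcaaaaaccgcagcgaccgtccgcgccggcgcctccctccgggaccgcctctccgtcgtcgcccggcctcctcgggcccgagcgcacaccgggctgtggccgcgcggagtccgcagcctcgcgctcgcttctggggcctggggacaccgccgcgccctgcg
Txnrd1: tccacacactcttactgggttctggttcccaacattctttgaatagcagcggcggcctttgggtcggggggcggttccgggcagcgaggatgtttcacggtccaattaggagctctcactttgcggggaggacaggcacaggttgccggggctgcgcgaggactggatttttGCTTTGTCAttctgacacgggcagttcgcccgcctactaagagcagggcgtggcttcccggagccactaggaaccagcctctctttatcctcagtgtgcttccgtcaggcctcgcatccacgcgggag
A second *Txnrd1* window, at another start (chr7:22764802-22765101, minus strand), held no match. The window of *Nfe2l2* itself holds such letters 38 bases after the start. In all, 4 of 10 windows of 9 of the genes (40%) held a match, against 4038 of the 33469 windows of the whole table (12.06%). A match is a description of the letters and was not tested as a binding site. On the log2 scale the Ept9 differences of these genes were 0.28 for *Gstp1*, 0.10 for *Gclm*, 0.17 and 0.10 for the probe sets of *Txnrd1*, and -0.07 for *Nfe2l2*, and none passed adjustment. *Nqo1*, whose window held no match, had the largest Ept9 difference of the 13 tested probe sets, at 0.48. Sequence further than 250 bases before a start was not searched, so a window without a match does not show that the gene lacks an element.

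None of the 13 tested probe sets passed the test for a difference between the lines after adjustment. In Ept9 against the other 3 lines 0 of 13 passed, where 0.683% of all 18607 tested probe sets did (limma's moderated test with Benjamini-Hochberg adjustment, threshold 0.05). Ept9 differences ran from -0.17 for *Gclc* to 0.48 for *Nqo1* on the log2(signal + 16) scale, the scale of every difference given here. For 12 of the 13 the 95% interval of the Ept9 difference lay within 1.5-fold in either direction, the exception being *Nqo1*. *Gstp1* was the only one whose 3 Ept9 arrays all lay above the 9 others. RNA was taken from whole glands, in which fewer cells of a type and less RNA per cell cannot be told apart.

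**Figure D1:**
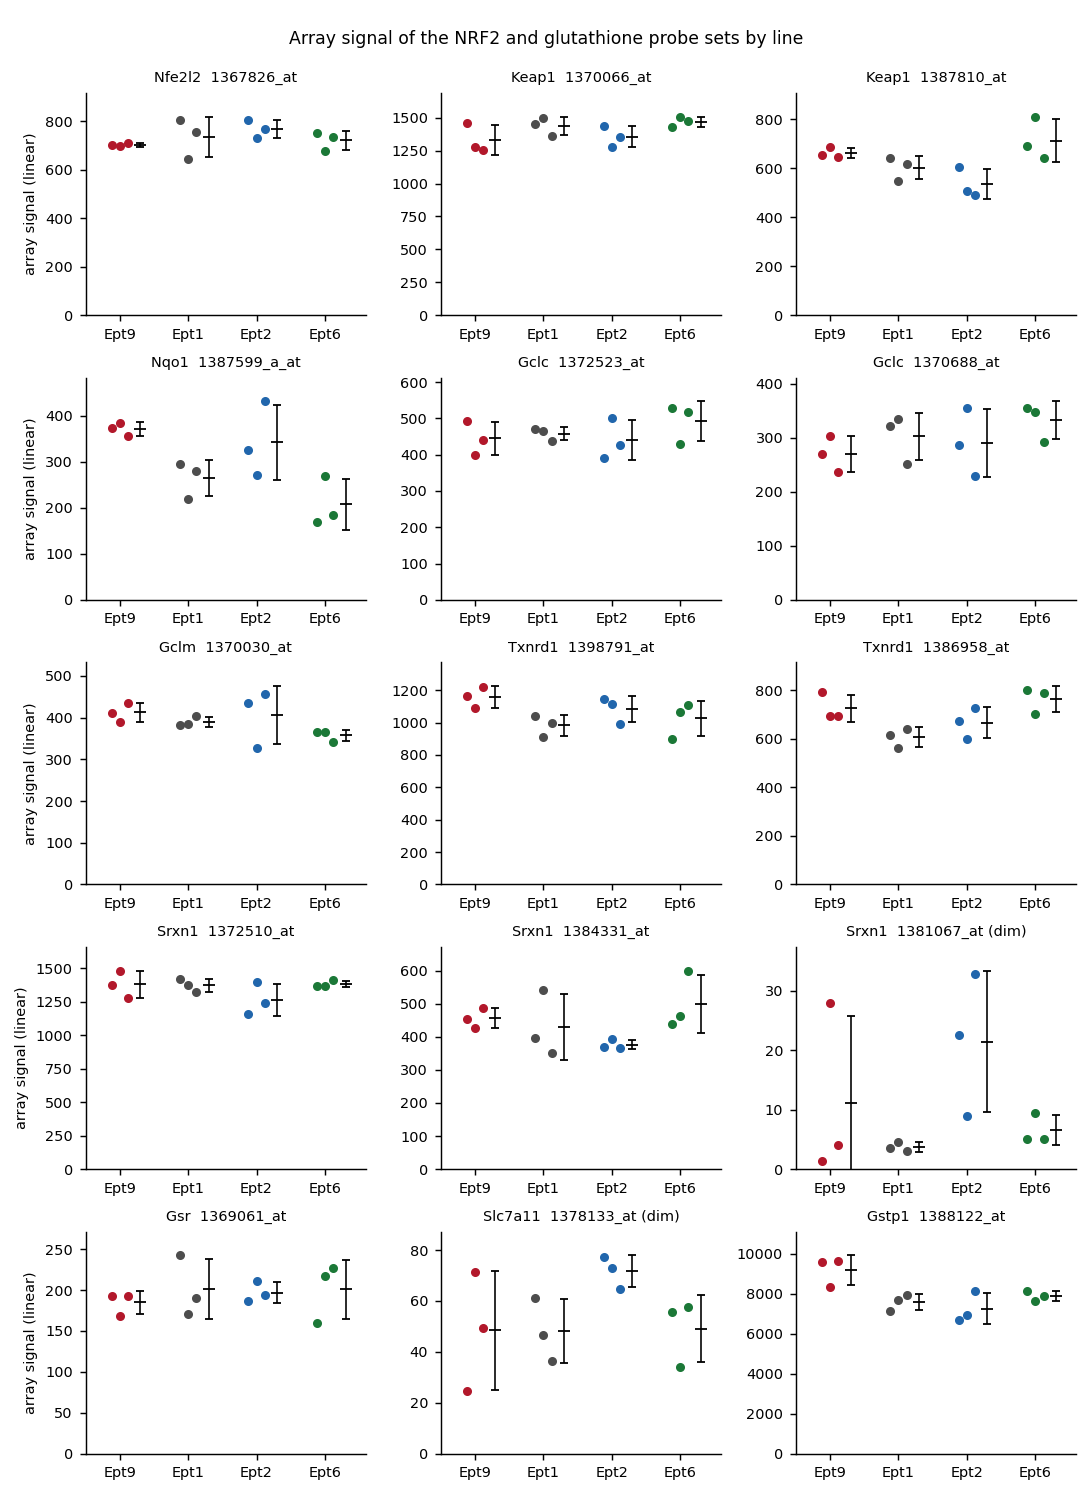
Array signal (linear, arbitrary units, axes from 0) of the 15 probe sets in Ept9, Ept1, Ept2 and Ept6. Points are arrays and bars are the mean ± SD of 3 arrays. The Ept9 arrays overlap the others in every panel but *Gstp1*, where they lie between 8333 and 9649.7 against at most 8143 elsewhere.

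Neither regulator differed between the lines past the test. *Nfe2l2* (probe set 1367826_at) gave 699, 696 and 711 in Ept9, against 805, 643 and 754 in Ept1, 805, 729 and 767 in Ept2, and 749.6, 678 and 734 in Ept6. The Ept9 arrays lay close together inside the range of the others. Its Ept9 difference was -0.07 ± 0.077 (SE; 95% interval -0.24 to 0.10; limma adjusted p = 0.789), and the moderated F test among the 4 lines gave an adjusted p of 0.834. *Nfe2l2* lies on chromosome 3, the chromosome of the Ept2 and Ept6 segments, and its difference was 0.09 in Ept2 (adjusted p = 0.632) and -0.02 in Ept6 (limma adjusted p = 0.93), each against the other 3 lines. Where the segments begin and end on that chromosome was not read from the sources used here.

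*Keap1*, the inhibitor, was read by 2 probe sets. The brighter, 1370066_at, ran from 1254 to 1461 in Ept9 and from 1275 to 1504 in the other lines, with an Ept9 difference of -0.09 ± 0.071 (SE; limma adjusted p = 0.678). The dimmer, 1387810_at, gave 654, 686 and 645 in Ept9, against 641, 549.8 and 616 in Ept1, 604, 509 and 489.9 in Ept2, and 689.6, 809.7 and 640.3 in Ept6. On this probe set the Ept2 mean was lowest and the Ept6 mean highest, and the Ept9 arrays lay above all of Ept2 and overlapped Ept6. Ept2 differed from the other 3 lines by -0.29 (unadjusted p = 0.0088, limma adjusted p = 0.179) and Ept6 by 0.25 (limma adjusted p = 0.399), while the Ept9 difference was 0.11 ± 0.092 (SE; limma adjusted p = 0.70). The brighter probe set gave -0.06 in Ept2 and 0.10 in Ept6, the same signs at smaller size, and across the 12 arrays the probe sets correlated at r = 0.309. Ept6 had the highest mean on both, followed by Ept1 and then Ept2 among the other lines, and Ept9 changed its place.

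Glutathione synthesis begins with glutamate-cysteine ligase, whose catalytic subunit is *Gclc* and whose modifier subunit is *Gclm*. *Gclc* (1372523_at) gave 400.3 to 492 in Ept9 and 392 to 530.0 in the other lines, and its second probe set (1370688_at) gave 237 to 304 in Ept9 and 230.1 to 356 in the others. Ept9 differences of -0.06 (limma adjusted p = 0.89) and -0.17 ± 0.13 (SE; limma adjusted p = 0.686) were within the spread between arrays. *Gclm* gave 411, 391 and 435 in Ept9, against 383, 384 and 403 in Ept1, 435, 328 and 457 in Ept2, and 365, 366 and 341 in Ept6. The 3 Ept9 arrays lay above all 3 Ept6 arrays and inside the range of Ept2, and the Ept9 difference was 0.10 (95% interval -0.10 to 0.31; limma adjusted p = 0.745).

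*Slc7a11* encodes the cystine carrier that supplies cysteine for glutathione. Its probe set was dim, with 24.6, 71.4 and 49.5 in Ept9, against 61.3, 46.6 and 36.3 in Ept1, 77.2, 72.8 and 64.8 in Ept2, and 55.8, 33.9 and 57.6 in Ept6. Its mean fell under 65.2, the signal set as the lower limit, so a line difference was hardly readable there, and without the filter the Ept9 difference was -0.20 (limma adjusted p = 0.866). *Gsr*, glutathione reductase, ran from 169 to 193 in Ept9 and from 159.5 to 242 in the other lines, with a difference of -0.09 (95% interval -0.36 to 0.17; limma adjusted p = 0.831).

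In the thioredoxin branch, *Txnrd1*, which reduces thioredoxin with NADPH, had 2 probe sets. The brighter, 1398791_at, gave 1164, 1089 and 1222 in Ept9, against 1039, 913 and 995 in Ept1, 1143, 1113 and 989.8 in Ept2, and 901, 1066 and 1108 in Ept6. Ept9 held the highest arrays of this probe set but overlapped Ept2 and Ept6, at 0.17 ± 0.084 (SE; 95% interval -0.02 to 0.36; limma adjusted p = 0.495). The dimmer, 1386958_at, gave 692.8 to 791.5 in Ept9, 563.7 to 642.8 in Ept1, 599.3 to 728.7 in Ept2 and 703.5 to 801.8 in Ept6. Ept1 was low on it, at -0.23 against the other 3 lines (unadjusted p = 0.0177, limma adjusted p = 0.529), and Ept6 stood at 0.20 (limma adjusted p = 0.445). The Ept9 difference was 0.10 (limma adjusted p = 0.71), and the *Txnrd1* probe sets correlated at r = 0.168 over the 12 arrays.

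*Srxn1* encodes sulfiredoxin, which restores overoxidised peroxiredoxins. Its bright probe set (1372510_at) ran from 1277 to 1480.2 in Ept9 and from 1158 to 1421 in the other lines, with an Ept9 difference of 0.04 (limma adjusted p = 0.898). A second (1384331_at) ran from 428 to 488 in Ept9 and from 349.9 to 599.6 in the others, with 0.09 (limma adjusted p = 0.859). Like *Nfe2l2*, *Srxn1* lies on chromosome 3. Against the other 3 lines the second probe set gave -0.27 in Ept2 and 0.24 in Ept6 (limma adjusted p = 0.374 and 0.541). The bright probe set gave -0.13 in Ept2 and 0.05 in Ept6 (limma adjusted p = 0.473 and 0.843). The remaining probe set, 1381067_at, stayed between 1.3 and 32.7 on all 12 arrays and was not tested with the filter. It correlated negatively with the other two, at r = -0.336 and r = -0.397, whereas those correlated at r = 0.399 with each other.

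*Gstp1*, a glutathione S-transferase that couples glutathione to electrophiles, was the gene on which the Ept9 arrays stood apart from the others. Its signal was 9577, 8333 and 9649.7 in Ept9, against 7159.8, 7675 and 7948 in Ept1, 6677, 6958 and 8131 in Ept2, and 8143, 7668 and 7880.0 in Ept6. All 3 Ept9 arrays exceeded all 9 others, an order that 1.3% of all tested probe sets had. The mean was 9187 ± 740 in Ept9 (SD, n = 3) and 7582 ± 529 over the other 9 arrays. The difference of 0.28 ± 0.081 (SE), or 1.21-fold (95% interval 1.07 to 1.37), had an unadjusted p of 0.00589 and did not pass adjustment (limma adjusted p = 0.211). Set against single lines it was 0.27 against Ept1, 0.34 against Ept2 and 0.22 against Ept6, with limma adjusted p-values of 0.36, 0.178 and 0.505. With a variance trend in the limma model the adjusted p was 0.0389, the only call of any of the 13 in the 22 alternatives.

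Other bright probe sets were also higher in Ept9. The 6 control probe sets of *Gapdh* and beta-actin differed by 0.16 to 0.25, and 4 of the 6 had all Ept9 arrays above the others. The *Gapdh* 3' control gave 19227 to 20381 in Ept9 and 15640.5 to 18639 in the other lines. Of the 631 tested probe sets with a mean signal from 4000 to 8000, the range that holds *Gstp1*, 66.9% had a positive Ept9 difference, with a median of 0.04. The part of this shift in the *Gstp1* difference was not tested.

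*Nqo1* encodes the quinone reductase that is widely used as a readout of NRF2 activity. It gave 372, 384 and 356 in Ept9, against 294, 219.7 and 279.8 in Ept1, 326, 269.9 and 430.5 in Ept2, and 168, 269.6 and 183 in Ept6. Ept9 was the tightest line and lay above all arrays of Ept1 and Ept6, but the third Ept2 array exceeded it. The means were 371 ± 14.2 in Ept9, 265 ± 39.5 in Ept1, 342 ± 81.5 in Ept2 and 207 ± 54.8 in Ept6 (SD, n = 3 each). The Ept9 difference of 0.48 ± 0.16 (SE), or 1.39-fold (95% interval 1.09 to 1.77), had an unadjusted p of 0.0123 and a limma adjusted p of 0.291. In the order of line means, Ept9 and Ept2 differed by 0.13 (95% interval -0.29 to 0.56), well within the spread.

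Ept6 lay at the low end for *Nqo1*. Its difference from the other 3 lines was -0.62 (95% interval -0.97 to -0.27; unadjusted p = 0.00258, limma adjusted p = 0.224). Between Ept9 and Ept6 alone the difference was 0.82 (95% interval 0.39 to 1.25), or 1.77-fold (unadjusted p = 0.00149, limma adjusted p = 0.198). *Nqo1* had the smallest p of the 13 in the F test among the 4 lines (unadjusted p = 0.00646, limma adjusted p = 0.176) and also the widest spread within lines, with an SD of 0.258 on the log2 scale against a median of 0.186 over all tested probe sets.

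**Figure D2:**
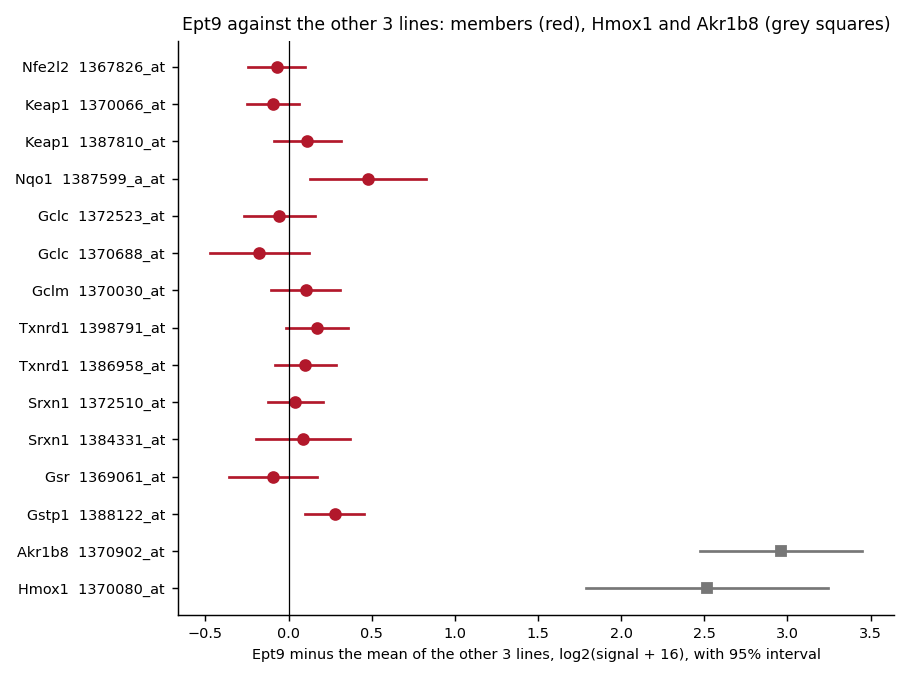
Difference of Ept9 from the mean of the other 3 lines in log2(signal + 16), with 95% intervals, for the 13 tested probe sets (circles) and for *Akr1b8* and *Hmox1* (squares). The 13 lie between -0.17 and 0.48, and *Akr1b8* and *Hmox1* at 2.96 and 2.52.

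The other contrasts gave no call either. Among the 4 lines 0 of 13 passed the F test, against 0.994% of all tested probe sets. The same held in Ept1 (0 of 13, against 0.193%), in Ept2 (0 of 13, against 0.801%) and in Ept6 (0 of 13, against 0.161%). Set against each single line, Ept9 gave 0 calls against Ept1 (0.5% of all), Ept2 (0.855%) and Ept6 (0.124%), and 0 that passed all 3 in 1 direction (0.0699%). Since so few of all probe sets were called, unadjusted p-values under 0.05 were also counted.

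Before adjustment 4 of the 13 (30.8%) passed the F test, the probe sets of *Nqo1* and *Gstp1*, the dimmer of *Keap1* and the dimmer of *Txnrd1*, where 14.1% of all tested probe sets passed. In Ept9 2 of 13 did (15.4%, against 11% of all), *Nqo1* and *Gstp1*, both higher. In Ept6 3 of 13 did (23.1%, against 10.7%), with *Nqo1* lower and the dimmer *Keap1* and *Txnrd1* probe sets higher. In Ept2 2 of 13 did (15.4%, against 14.4%), the dimmer *Keap1* probe set and *Gstp1*, both lower, and in Ept1 1 of 13 (7.69%, against 7.49%), the dimmer *Txnrd1* probe set, lower. The median Ept9 difference of the 13 was 0.09, with 8 positive and 5 negative, and that of all tested probe sets was -0.01. The median size of the difference regardless of sign was 0.10 for the 13 and 0.11 for all.

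Correlations between the genes from array to array were low in the median. Over the 12 arrays the 36 pairs among the brightest probe sets of the 9 tested genes had a median Pearson r of 0.0538, with 20 pairs above 0. The highest was *Nqo1* with *Gclm*, at 0.71, and the lowest *Gclm* with *Srxn1*, at -0.683, while *Nqo1* and *Gclc* correlated at -0.678. These values are descriptions over 12 arrays of 4 lines that share a scaling. Tested probe sets of 1 gene correlated with each other at only 0.168 to 0.399. A low r between genes therefore cannot show that they did not move together. By the same measure the tested genes most like *Nqo1* were *Cd151* (0.959), *Pgrmc2* (0.947), *Arhgap18* (0.921), *Camk1* (0.917) and *Hsd17b10* (0.917), and those most like *Nfe2l2* were *Klf2* (0.892), *Skor1* (0.866), *Hebp2* (0.859), *Zbtb7a* (0.853) and *Veph1* (0.852). No other of the 10 genes was among them. They were picked as the highest values over the tested genes, which alone favours a high r, and were not tested further.

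Genes around the NRF2 pathway were read from 5 lists of 84 further genes, of which 68 genes with 77 probe sets were tested. In Ept9 2 of the 77 were called higher, *Hmox1* and *Akr1b8*, and 2 lower, 1 probe set each of *Nfe2l1* and *Mafg*, where 0.43% and 0.253% of all tested probe sets were called higher and lower. In Ept1 *Akr1b8* was called lower (0.15% of all), in Ept2 *Akr1b8* and *Hmox1* were called lower (0.462% of all), and in Ept6 0 were called. The reference for these lower calls includes the high Ept9 arrays. For *Akr1b8* the means were 1245 in Ept9, 415 in Ept6, 104 in Ept1 and 72.8 in Ept2, and the Ept1 and Ept2 arrays overlapped. At an unadjusted p under 0.05 13 of the 77 were higher and 4 lower in Ept9 (11% of all tested probe sets in either direction), 3 higher and 7 lower in Ept1 (7.49%), 16 higher and 4 lower in Ept2 (14.4%), and 3 higher and 17 lower in Ept6 (10.7%). The F test called *Akr1b8*, *Hmox1* and *Nfe2l1*.

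*Nfe2l1* encodes NRF1, a relative of NRF2 that binds the same response elements, and *Mafg* encodes a small MAF protein that pairs with both. Both genes lie on chromosome 10, the chromosome of the Ept9 segment. Of the listed genes *Abcc1*, *Abcc3*, *Aldh3a1*, *Gpx3*, *Hagh* and *Sqstm1* lie there too, and none of their tested probe sets was called in Ept9. Where the segment begins and ends was not read from the sources used here. The *Nfe2l1* probe set 1373278_at gave 1418, 1338 and 1248 in Ept9, against 2295, 1995 and 2255 in Ept1, 2251, 1855 and 2263 in Ept2, and 2238, 2311 and 2272 in Ept6. All Ept9 arrays lay below all others, an order that 1.4% of all tested probe sets had, at -0.71 ± 0.082 (SE; limma adjusted p = 0.00457), and against each single line the difference passed as well (adjusted p = 0.0138 against Ept1, 0.0158 against Ept2 and 0.016 against Ept6). Of the other *Nfe2l1* probe sets, 1375253_at gave -0.43 (95% interval -0.84 to -0.03; unadjusted p = 0.0377, limma adjusted p = 0.416) and was negative in all 22 alternatives. In contrast, 1390068_at gave 0.15 (limma adjusted p = 0.697) and was positive in all 22. The call thus rests on 1 of the 3 probe sets, and 2 of the 3 had a negative difference. A difference between COP and ACI sequence under the probes was not tested.

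The *Mafg* probe set 1372024_at gave 165, 158 and 216 in Ept9, against 302, 303 and 286 in Ept1, 262, 292 and 274 in Ept2, and 291, 219.3 and 269.7 in Ept6. The Ept9 arrays again lay below all others, the third of them close to the lowest Ept6 array. The difference was -0.59 ± 0.105 (SE; limma adjusted p = 0.0405), the F test did not pass (adjusted p = 0.0827), and 10 of the 22 alternatives kept the call. It was lost when any single array other than Ept2 replicate 1, Ept6 replicate 2 and Ept9 replicate 3 was left out, with an adjusted p of up to 0.194, reached without Ept9 replicate 1. It was also lost with the replicate block (adjusted p = 0.0807), with quantile normalization (0.0525) and with no filter (0.13), while the difference stayed between -0.60 and -0.51 wherever the call was lost. The second *Mafg* probe set, 1368874_a_at, gave 0.06 (limma adjusted p = 0.931).

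**Figure D3:**
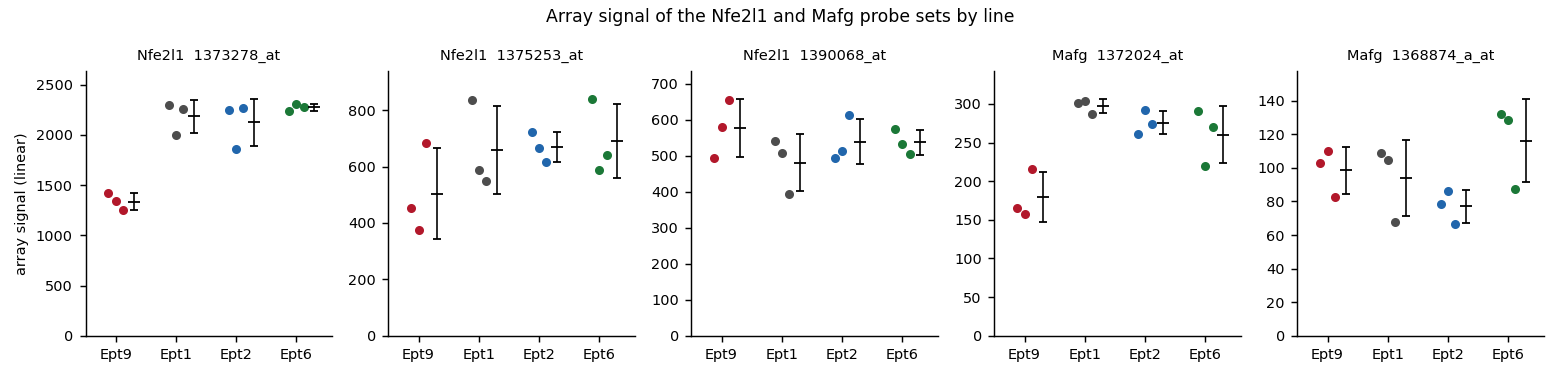
Array signal (linear, arbitrary units, axes from 0) of the 3 *Nfe2l1* and 2 *Mafg* probe sets in Ept9, Ept1, Ept2 and Ept6. Points are arrays and bars are the mean ± SD of 3 arrays. For 1373278_at the Ept9 arrays lie at 1248 to 1418 and the others at 1855 to 2311, whereas the other *Nfe2l1* probe sets overlap.

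*Akr1b8*, an aldo-keto reductase, gave 1322, 1131 and 1282 in Ept9 and 50.3 to 456 in the other lines, a difference of 2.96 ± 0.22 (SE; limma adjusted p = 0.000186). *Hmox1*, heme oxygenase, gave 2659.7, 2015 and 3613 in Ept9 and 130.4 to 1203 in the others, at 2.52 ± 0.33 (SE; limma adjusted p = 0.00989, but 0.0566 without Ept9 replicate 1 and 0.0641 without Ept9 replicate 3). Ept6 lay between Ept9 and the rest, with means of 415 for *Akr1b8* and 1014 for *Hmox1*. In Ept1 and Ept2 the means were 104 and 72.8 for *Akr1b8* and 447 and 246 for *Hmox1*. Against Ept6 alone Ept9 did not pass for either gene, at 1.56 (limma adjusted p = 0.0707) and 1.41 (0.29). Against Ept1 and against Ept2 alone both genes passed, with a limma adjusted p of at most 0.0169. *Akr1b8* and *Hmox1* are NRF2 targets in other tissues, and their differences from the other 3 lines were several times that of *Nqo1*. Of the genes that stood high in Ept9 beside them, *Slc40a1*, the iron exporter, gave 1.49 and 1.26 on called probe sets (limma adjusted p = 0.0239 and 0.0326) and 1.23 on another (adjusted p = 0.0883), and *Gpnmb* gave 1.03 (adjusted p = 0.0423). *Slc40a1* and *Gpnmb* did not pass against Ept6 alone either (limma adjusted p from 0.344 to 0.64). Both genes were also low in Ept2 against the other 3 lines. There *Slc40a1* gave -1.28 on 1376972_at (limma adjusted p = 0.0273) and -1.14 and -1.24 on its other probe sets (0.0525 and 0.0772). *Gpnmb* gave -0.99 (limma adjusted p = 0.0461). On 1376972_at and *Gpnmb* all Ept2 arrays lay below the others. The references of Ept9 and Ept2 each include the other line. No Ept2 call was left with the *Gapdh* covariate.

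Markers of other cells were read beside these genes. Of 9 macrophage and leukocyte markers, all tested and 0 called, 6 were higher in Ept9 with a median of 0.19, and their summed signal ran from 14788 to 17728 in Ept9 and from 11358 to 18620 in the other lines. The 2 tested red blood cell markers were both positive, with a median of 0.50 and a sum of 18392 to 29666 in Ept9 and 13217 to 19690 in the others. Other lists had negative medians in Ept9 with 0 calls, -0.54 for the 1 tested corticotroph marker, -0.29 for 2 of thyrotrophs, -0.25 for 4 of gonadotrophs and -0.16 for 4 of folliculostellate and stem cells. Lactotroph, somatotroph, endothelial and stromal markers had medians of -0.02, -0.09, -0.07 and 0.06. The part of these markers in the results for *Hmox1*, *Akr1b8*, *Nqo1* and *Gstp1* was not tested.

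The remaining pathway genes gave no call in Ept9. Of 16 probe sets of NADPH and other NRF2 targets, the called *Hmox1* and *Akr1b8* included, 13 were positive in Ept9, with a median of 0.17. On 5 all Ept9 arrays lay above the others, an order that 1.3% of all tested probe sets had. These were *Hmox1*, *Akr1b8*, *Me1* (1370067_at), *Taldo1* and *Tkt*, the last 3 named after their values were seen. Over all 5 lists 7 of the 77 tested probe sets had this order. The others were *Prdx3* and *Prdx5*, at 0.13 each (limma adjusted p = 0.461 and 0.539), also named after their values were seen. *Me1*, *Taldo1* and *Tkt* gave 0.22, 0.22 and 0.20 (limma adjusted p = 0.43, 0.458 and 0.242). The other *Me1* probe set, 1370870_at, overlapped, at 0.15 (limma adjusted p = 0.768). *Pgd*, a pentose phosphate enzyme, gave 0.36 (limma adjusted p = 0.204), *Blvrb*, biliverdin reductase B, 0.30 (limma adjusted p = 0.355) and *Abcc1*, an exporter of glutathione conjugates, -0.29 (limma adjusted p = 0.495). Of 17 probe sets of glutathione synthesis and peroxidases 11 were positive with a median of 0.02, among them *Gpx7* at 0.24, *Ggt1* at 0.23 and *Chac1* at -0.21 (limma adjusted p = 0.67, 0.318 and 0.406).

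Of 16 glutathione S-transferase probe sets 10 were positive in Ept9 with a median of 0.07. *Gsta1* gave 1370.3, 613 and 665 in Ept9 and 326 to 691 in the other lines, so that 1 array lay far above the rest, and its difference was 0.77 (limma adjusted p = 0.28). *Gsta4* gave -0.50 and *Gstm4* 0.24 (limma adjusted p = 0.535 and 0.52). Of 14 probe sets of thioredoxins, peroxiredoxins and dismutases 11 were positive with a median of 0.09, with *Cat*, catalase, at 0.28, *Sod2* at 0.19 and *Txnrd2* at 0.18 (limma adjusted p = 0.384, 0.467 and 0.792). Of all tested probe sets 46.24% were positive in Ept9.

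The glutathione S-transferase list and that of thioredoxins, peroxiredoxins and dismutases had 0 calls in any line, and differences of a list between lines were not tested. In Ept6 15 of the 16 glutathione S-transferase probe sets (median -0.17) and 13 of the 14 of thioredoxins, peroxiredoxins and dismutases (median -0.14) were negative, against 47.7% of all tested probe sets. In Ept2 13 of 16 (median 0.14) and 12 of 14 (median 0.07) were positive, against 51.81% of all, and for the second list the Ept9 median of 0.09 was above that of Ept2. Of the 13 probe sets of the 10 genes, 8 were positive in Ept6 and 5 in Ept2. The *Gapdh* 3' minus 5' difference, a measure of RNA integrity, was 0.137 ± 0.0589 in Ept6, 0.379 ± 0.0567 in Ept2, 0.205 ± 0.0634 in Ept9 and 0.253 ± 0.00736 in Ept1 (log2, SD, n = 3 each), and its part in the list values was not tested.

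**Figure D4:**
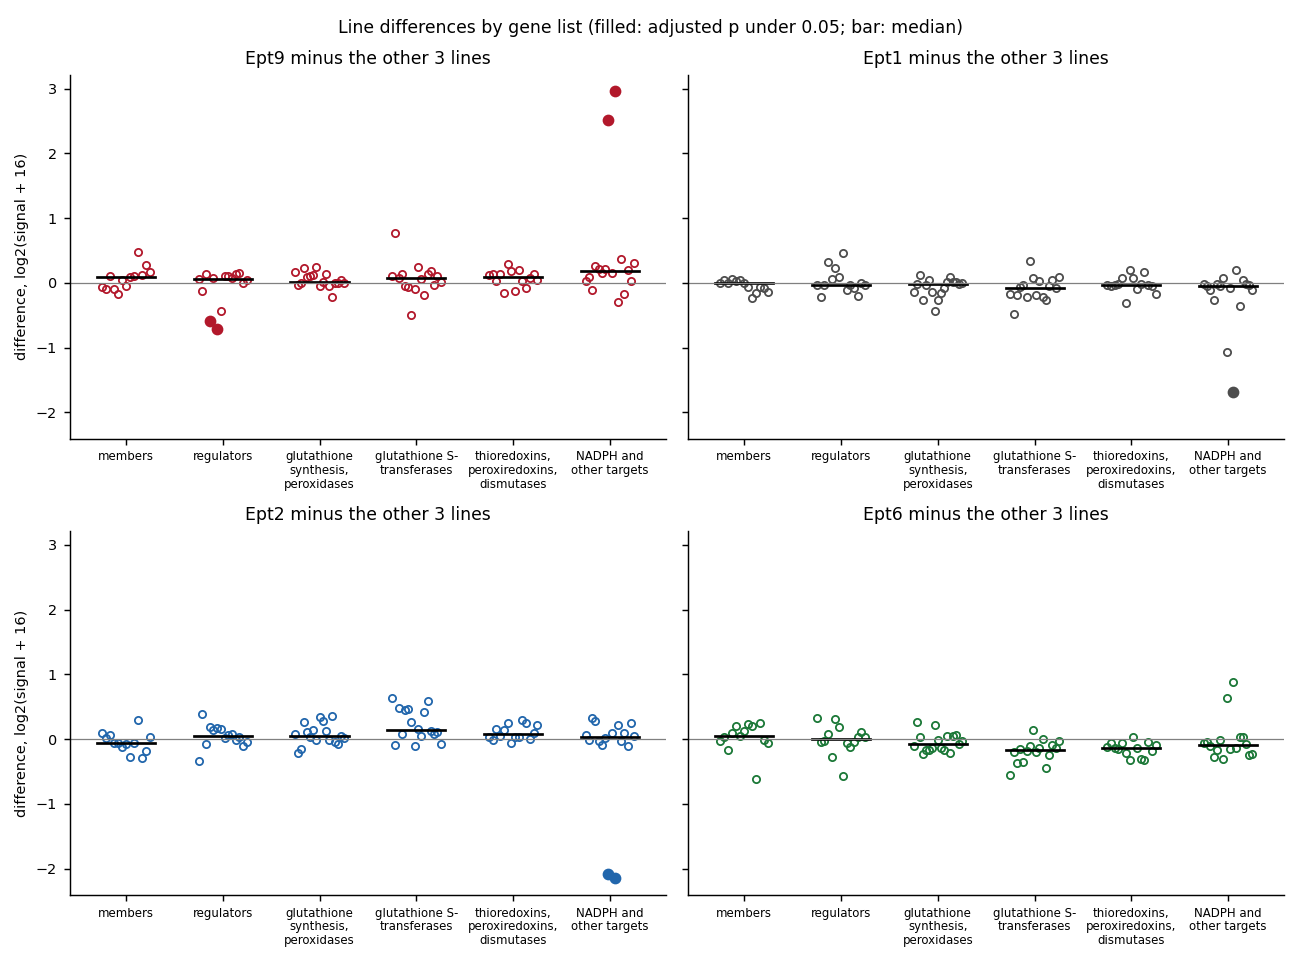
Difference of each line from the mean of the other 3 in log2(signal + 16), 1 panel per line, for the tested probe sets of the 10 genes (first column, 13 points) and of the 5 lists of other pathway genes. Filled points have an adjusted p under 0.05 and bars are medians. The 13 points are open in every panel, and the medians of the 10 genes lie between -0.06 and 0.09.

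The tissue label was checked against marker genes. *Prl* and *Gh1*, the prolactin and growth hormone genes, ran from 41979 to 51767 and from 27923 to 40693 over the 12 arrays, and 0 of 4 posterior lobe markers passed the filter. *Pomc* of the corticotroph list and *Esr1* of the lactotroph list were dim too, with medians of 59 and 52.7. A dim posterior lobe marker therefore does not show that the lobe was absent. Arrays correlated at 0.966 to 0.983 with each other. The 3 arrays per line limit the precision of every value.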

How the data were processed

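The deposited table holds linear array intensity values (signals) of biotin-labelled anterior pituitary RNA, which the authors scaled to a common trimmed mean (500.18 to 500.19 per array, leaving out 2% at each end). How the background was corrected and with which software is not given in the sources used here. The deposited intensities were taken to log2(signal + 16) and not rescaled. The 57 control probe sets were left out, as were 12435 below the 40th percentile of the mean log2 values (signal 65.2), which left 18607 tested, and differences understate the change of dim genes.

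Lines were grouped by sample title and compared with limma 3.58.1 in R 4.3.3, by a moderated F test and by moderated tests of each line against the mean of the other 3 and of Ept9 against each line, fitted on all 12 arrays and all tested probe sets, with Benjamini-Hochberg adjustment per contrast at a threshold of 0.05. The fit was tested on simulated data. The design text speaks of 3 biological replicates per line, the sample notes of 3 males and 2 independent replicates.

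The named genes were the 10 genes, called genes of the pathway lists, otherwise up to 3 per list by Ept9 difference, the 5 genes most correlated with *Nfe2l2* and with *Nqo1*, and *Hmox1*, *Akr1b8*, *Slc40a1* and *Gpnmb*. The genes, lists and tests were chosen with earlier results of these data known. Gene symbols came from the platform annotation, which names 1 gene for 20832 probe sets, more than 1 for 436 and no gene for 9831, and chromosomes and promoters from RefSeq (GRCr8). Alternatives were other pseudocounts, normalizations, filters and variance models, a replicate block, a *Gapdh* 3' minus 5' covariate, and leaving out each array.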

Additional observations from a re-analysis of the deposited data

How the results depend on the processing

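None of the 13 probe sets was called among the 4 lines, in Ept1, Ept2 or Ept6, or in Ept9 against each other line under any of the 22 alternatives, 12 of which leave out 1 array. In Ept9 against the other 3 lines 1 was called with the eBayes trend, *Gstp1*, and 0 in the other alternatives. Of 285 Ept9 differences of the 13 under the alternatives (*Gsr* was dropped by the filter at the 60th percentile) 2 had the other sign, 1 each for *Gclc* and *Srxn1*, both near 0. *Gstp1* ranged from 0.22 to 0.35 (limma adjusted p from 0.0389 to 0.566) and *Nqo1* from 0.41 to 0.65 (0.126 to 0.544). *Nfe2l1* kept its Ept9 call in all 22 and *Mafg* in 10. In the F test *Nfe2l1* was lost without Ept9 replicate 2 or 3 (limma adjusted p = 0.0617 and 0.0727) and with no filter (0.0642), and *Hmox1* with the *Gapdh* covariate (0.114).

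The counts over all probe sets moved more, and the cause was not tested. Without the filter the counts were 29 in Ept9 (127 with it), 53 among the 4 lines (185), 18 in Ept1 (36), 32 in Ept2 (149) and 9 in Ept6 (30). The eBayes trend gave 217 in Ept9, 419 among the lines, 73 in Ept1, 340 in Ept2 and 105 in Ept6. A *Gapdh* covariate gave 64 in Ept9, 37 among the lines, 0 in Ept2 (where limma's unadjusted p was under 0.05 for 1604 probe sets) and 7 in Ept6. A stricter filter, at the 60th percentile, gave 282 among the lines, 225 in Ept2 and 58 in Ept6. Array weights gave 98 in Ept2 and a pseudocount of 1 gave 16 in Ept6. Leaving out 1 array at a time gave 29 to 126 in Ept9 (lowest without Ept9 replicate 1 or 3), 74 to 142 among the lines (lowest without Ept9 replicate 3), 12 to 33 in Ept1, 27 to 107 in Ept2 and 11 to 30 in Ept6.

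The replicate numbers share only a number: deviations from the line means correlated at -0.137 to 0.0787 over the 18 pairs of arrays with the same number and at -0.103 to 0.11 over the 36 others. With the replicate number as a block the counts were 40 in Ept9, 84 among the 4 lines, 16 in Ept1, 50 in Ept2 and 14 in Ept6, and 0 of the 13 were called. *Mafg* lost its Ept9 call under the block (limma adjusted p = 0.0807), while *Nfe2l1*, *Akr1b8* and *Hmox1* kept theirs. The number of arrays limits the precision, and differences of the dim *Slc7a11* probe set could hardly be read.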
